A study of Mus musculus with 24 samples.

Results

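Histone acetylation is described here at 9 cyclic nucleotide phosphodiesterase genes: Pde1a, Pde1c, Pde2a, Pde4a, Pde4b, Pde4d, Pde7b, Pde8b and Pde10a. All peaks of H3K27ac, histone H3 acetylated at lysine 27, that the deposited peak table names for 1 of these genes were taken. That gave 261 of 144154 peaks and 9 of 18808 named genes. The choice of genes used no measured value, although it was made with other results of these data known.

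Phosphodiesterases break down cyclic AMP (cAMP) and cyclic GMP (cGMP), and so end the signals that these messengers carry. In hippocampal neurons cAMP acts through protein kinase A and the transcription factor CREB, a pathway long studied in memory formation, and inhibitors of phosphodiesterases prolong it. H3K27ac is a mark of active promoters and enhancers, and class I histone deacetylases, the targets of CI-994, remove such acetyl groups.

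The mark was measured by low-input chromatin immunoprecipitation sequencing in NeuN-sorted neuronal nuclei, labelled as dentate gyrus in the source field and as hippocampus in the titles. The mice were C57BL/6J males, 12 weeks old, which had received CI-994 (30 mg/kg, intraperitoneal, the HDACi groups) or vehicle (Veh) 1 h earlier. They then had contextual fear conditioning (CFC), with 2 foot shocks (each 0.2 mA for 1 s) after 3 min of habituation, or had equal time in the chamber unshocked (Context), and were killed 1 h later. The 2 treatments and 2 behaviours gave 4 groups of 3 libraries, and the mice of all groups had an injection in the same solvent and the same handling. Whole cages went to CFC or to Context, so an effect of shock cannot be told apart from one of cage. The labels do not say that the 3 libraries of a group came from separate mice, so the p-values measure the spread between these libraries, which may be technical.

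Total counts in peaks ranged from 6639158 to 16734757 per library, and 0.167% to 0.180% of them lay in the phosphodiesterase peaks. The share of counts in all promoter peaks moved with the groups: 21.4% to 22.5% in Veh-Context, 24.9% to 26.7% in Veh-CFC, 18.3% to 19.6% in HDACi-Context and 25.2% to 25.4% in HDACi-CFC. A promoter peak is one whose edge lies within 1000 bp of the transcription start site named beside it. Promoter peaks were present for 5 of 5 neuronal and 8 of 8 granule neuron markers, and for 1 of 8 interneuron markers. They were also present for 5 of 7 CA pyramidal, 5 of 6 astrocyte, 3 of 6 endothelial and mural and 4 of 6 striatal medium spiny neuron markers. Over all named genes 14155 of 18808 had one, so presence alone does not set cell types apart. The sums below use the strongest promoter peak of each marker. The neuronal markers summed to 415.2–462.3 CPM (counts scaled to the library size) in Veh-Context against 468.2–523.8 in Veh-CFC. With the drug they summed to 331.6–353.6 CPM in Context and 500.6–532.1 in CFC mice. Rbfox3 alone averaged 179.6 and 239.5 CPM with vehicle and 134.1 and 276.9 CPM with the drug, Context before CFC. In vehicle mice Snap25 and Tubb3 were also higher with shock, but Map2 (84.2 to 81.5 CPM) and Syt1 (78.7 to 78.2) were not. In drug-treated mice Map2 (66.4 to 70.3) and Syt1 (69.9 to 75.5) were higher. Over all 165 peaks of these markers, 32 rose and 73 fell with shock in drug-treated mice (all peaks 20.2% and 17.8%). The granule neuron markers summed to 372–420.7, 436.7–520.1, 276–333.6 and 354.6–470.5 CPM in that order. Promoter peaks were also present for 7 of 8 oligodendrocyte markers. These summed to 132.6–146.3 CPM in Veh-Context and 170.6–217.1 in Veh-CFC, and to 94.8–108.5 in HDACi-Context and 177.3–200.0 in HDACi-CFC. The 5 of 5 markers of oligodendrocyte precursors summed to 19.6–22.5 and 23.6–42.4 CPM with vehicle, and to 10.6–17.1 and 31.2–34.6 CPM with the drug, Context before CFC. The 6 of 8 microglial markers summed to 31.2–36.3, 38.5–50.4, 26.1–28.9 and 31.8–33.4 CPM in the same order.

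The 9 genes carried between 2 and 84 peaks each. Pde10a had 84, Pde4b 65, Pde8b 30, Pde7b 25, Pde4a 20, Pde1a 16, Pde2a 12, Pde4d 7 and Pde1c 2. Introns held 217 of the 261 peaks, 29 lay between genes, and 24 were promoter peaks by the edge rule. By the chromatin state given in the deposited table, 67 were active enhancers, 74 primed enhancers, 13 strong promoters, 3 repressed regions and 104 of a state named control. Per kilobase of peak, the mean level over the 12 libraries was highest for Pde7b (4.58 CPM per kb), followed by Pde4b (3.68), Pde8b (3.52), Pde1a (3.42), Pde10a (3.33), Pde4a (3.27), Pde2a (3.27), Pde4d (3.01) and Pde1c (2.39). The ranges over libraries overlapped for every pair of neighbours in that order, for example 3.39 to 5.35 CPM per kb for Pde7b and 2.94 to 5.10 for Pde4b. The median over all named genes was 3.17 CPM per kb.

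**Figure D1:**
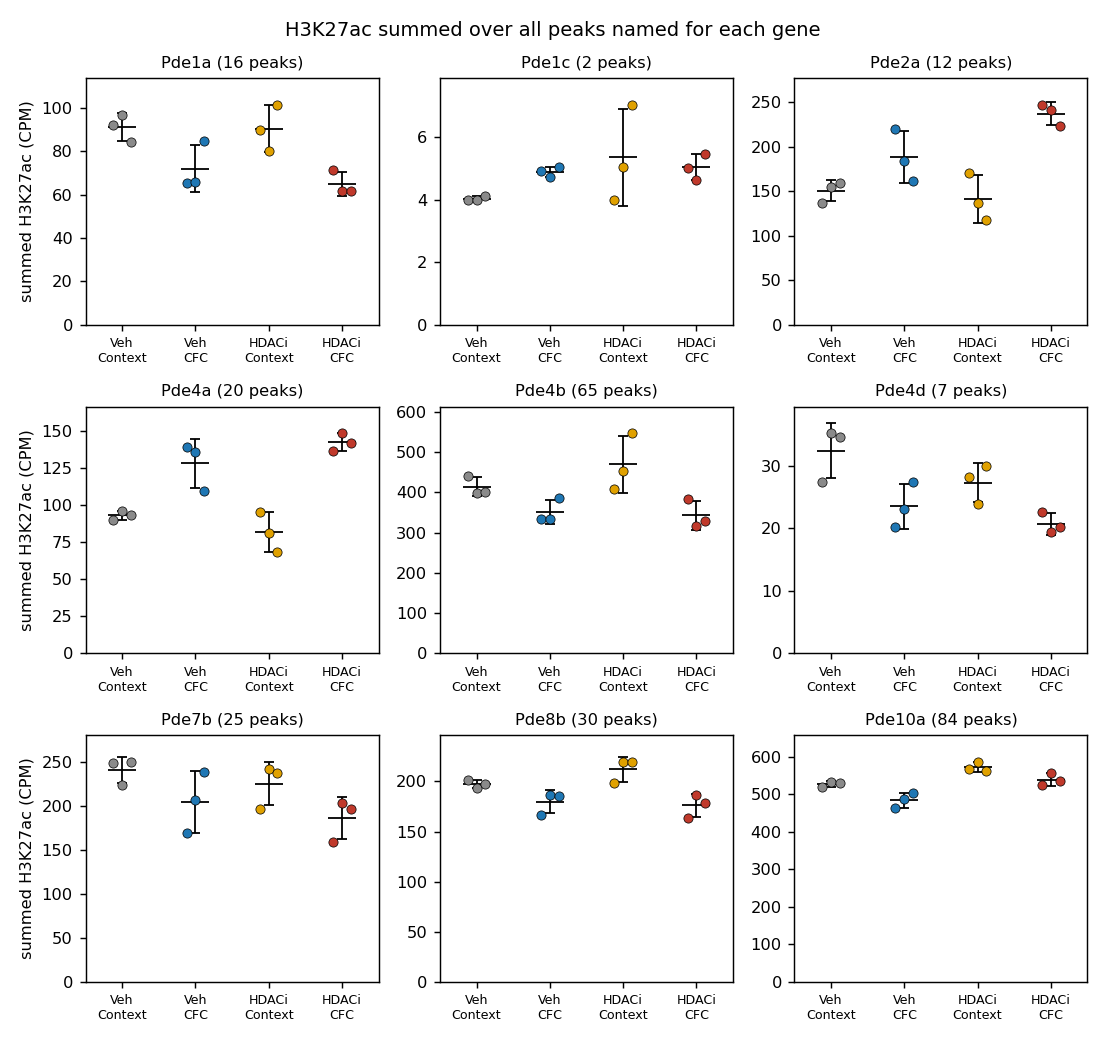
H3K27ac summed over all peaks of each of the 9 genes, in CPM (y axes from 0), by group (x axes). Points are the 3 libraries of a group and bars the mean ± SD; the HDACi-CFC libraries of Pde4a (136.7 to 148.6 CPM) sit above all Context libraries (68.5 to 95.9 CPM).

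The first question was how acetylation at these genes differed between shocked and unshocked mice. With counts summed over all peaks of a gene, Pde4a rose with shock in vehicle mice, and Pde2a and Pde4a rose with shock in drug-treated mice. Pde1a and Pde4d fell in both, and Pde4b and Pde8b fell in drug-treated mice. So in vehicle mice 1 of the 9 genes rose and 2 fell, where 12.1% of 18806 tested genes rose and 10.8% fell. In drug-treated mice 2 rose and 4 fell, where 28.2% of genes rose and 28% fell. Pde1c, Pde7b and Pde10a did not pass in either (edgeR quasi-likelihood test, Benjamini-Hochberg adjusted p under 0.05 over all genes, used throughout).

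**Figure D2:**
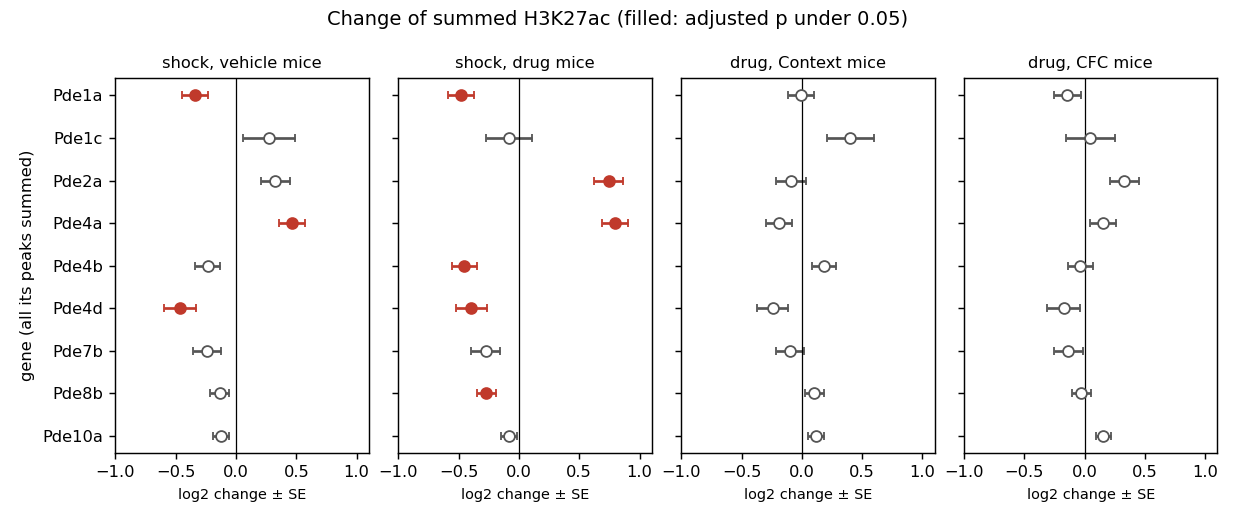
Log2 change of summed H3K27ac (x axes, ± SE, 3 libraries per group) for each gene (y axis) with shock in vehicle mice, shock in drug mice, drug in Context mice and drug in CFC mice. Filled points passed adjusted p under 0.05: Pde4a lies to the right and Pde1a and Pde4d to the left of 0 in both shock panels, and the drug panels hold no filled point.

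Counted peak by peak, the shares that changed were near or below those of all peaks. In vehicle mice 9 of the 261 peaks rose with shock (3.45%, where 4.41% of all 144014 tested peaks rose) and 7 fell (2.68%, where 2.74% of all fell). In drug-treated mice 36 rose (13.8%, where 20.2% of all rose) and 47 fell (18.0%, where 17.8% of all fell). The median log2 change was −0.06 and −0.18 in the 2 comparisons, against −0.00 and −0.05 over all peaks. The split of calls in drug-treated mice moved with the scaling: 43.4% of the called peaks were higher, but 27% with library totals, which shift the median of all peaks by −0.13, and 60.4% with DESeq2. In vehicle mice the higher share was 56.2%, and 43.8% and 80.0% under those alternatives. There DESeq2 gave no adjusted p for 88 of the 261 peaks.

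Promoter peaks that changed with shock all rose, while more of the remaining peaks fell than rose. Of the 24 promoter peaks, 7 rose and 0 fell with shock in vehicle mice, and 15 rose and 0 fell in drug-treated mice (edgeR). Over all 21487 promoter peaks of the genome 14.1% and 45.3% rose, and only 0.47% and 2.02% fell. The median log2 change of the phosphodiesterase promoter peaks was 0.38 and 0.66 (all promoters 0.25 and 0.42). Of the 237 other peaks, 2 rose and 7 fell in vehicle mice, and 21 rose and 47 fell in drug-treated mice. That was 0.844% and 2.95% in vehicle mice, where 2.71% of all such peaks rose and 3.14% fell, and 8.86% and 19.8% in drug-treated mice, where 15.8% rose and 20.5% fell. Pde2a and Pde4a differed from this order, with 4 and 7 of their other peaks rising in drug-treated mice and 0 falling. The shift in promoter share over the genome and the summed promoter levels of neuronal and glial markers, given above, moved with the same groups. Not every single marker did, and the part of these shifts in the rises was not tested.

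**Figure D3:**
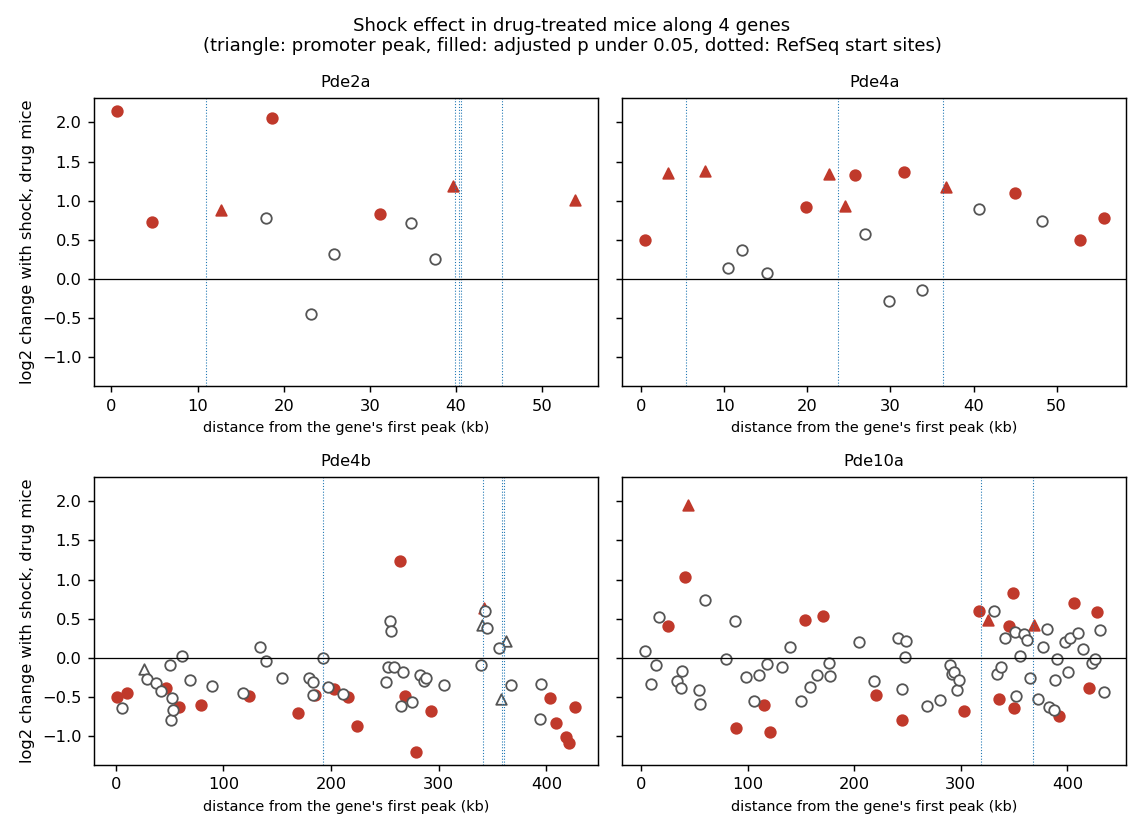
Log2 change with shock in drug-treated mice (y axes) for every peak of Pde2a, Pde4a, Pde4b and Pde10a, by distance in kb from the first peak of the gene on the chromosome (x axes). Triangles are promoter peaks, filled symbols passed adjusted p under 0.05, and dotted lines are the start sites of the RefSeq promoter table. The called peaks of Pde2a (7) and Pde4a (12) all lie above 0, while Pde4b has 2 above and 19 below and Pde10a 12 above and 10 below.

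The second question was what CI-994 did. In shocked mice 1 of the 261 peaks rose with the drug (peak 63 of Pde10a) and 0 fell, where 0.483% of all peaks rose and 0.435% fell. At an unadjusted p under 0.05, 13 were higher and 12 lower, and DESeq2 called 2 higher and 0 lower. DESeq2 gave no adjusted p for 168 of the 261 in this comparison. In unshocked mice 3 rose and 12 fell, where 2.73% of all rose and 5.85% fell. Over both behaviours 5 rose and 10 fell, where 3.52% of all rose and 5.81% fell. Each of these shares of the 261 was below that of all peaks. Of the calls in unshocked mice 20% were higher, against 42.9% with library totals, 35.7% with loess offsets and 0% with DESeq2 (0 higher and 9 lower). For this comparison DESeq2 left 88 of the 261 without an adjusted p.

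With counts summed per gene, none of the 9 passed for the drug in shocked mice, where 0.952% of all genes rose and 0.968% fell (edgeR; 2 genes at an unadjusted p under 0.05, and 0 with DESeq2). None passed in unshocked mice, where 9.97% rose and 10.3% fell (0 at an unadjusted p under 0.05, and 0 with DESeq2). Over both behaviours Pde10a rose and no other did, where 10.6% of all genes rose and 11.5% fell. The drug and shock comparisons share libraries: HDACi-Context, for example, enters the drug effect in unshocked mice and the shock effect in drug-treated mice with opposite signs. In unshocked mice 7 of the 24 promoter peaks fell and 0 rose, where 21.3% of all promoter peaks fell and 0.917% rose. Of the 237 others 5 fell and 3 rose (2.11% and 1.27%, where 3.15% and 3.05% of all such peaks did).

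The third question was whether the drug effect differed between shocked and unshocked mice. No peak of the 261 passed the interaction test in either direction, where 0.034% of all peaks were higher and 0.000694% lower (edgeR). At an unadjusted p under 0.05 there were 24, and DESeq2 called 1, peak 3 of Pde4a. DESeq2 gave no adjusted p for 222 of the 261 peaks here, so its count covers far fewer peaks. No gene passed when its peaks were summed, as was so for all genes (0% higher and 0% lower in edgeR), with 2 of the 9 at an unadjusted p under 0.05 and 0 with DESeq2. Peak 3 of Pde4a had the smallest adjusted p of the members, 0.085 with an interaction of 0.77 ± 0.19 (log2, SE), and 0.02 with DESeq2. Without Veh-CFC replicate 1 its adjusted p was 0.015, and without HDACi-Context replicate 1 it was 0.0026. Leaving out HDACi-Context replicate 1 also brought peaks 9 and 10 of Pde10a (adjusted p = 0.019 and 0.013), peak 12 of Pde2a (0.0017) and the sum of Pde2a (0.038) past the threshold, and leaving out Veh-CFC replicate 1 the same 3 peaks (0.043, 0.0035 and 0.033).

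Pde1a and Pde1c encode enzymes that calcium and calmodulin switch on, and that hydrolyse both cAMP and cGMP. Summed over its 16 peaks, Pde1a was 92.0, 96.9 and 84.4 CPM in Veh-Context and 65.4, 66.1 and 84.5 CPM in Veh-CFC. It was 90.0, 79.9 and 101.4 CPM in HDACi-Context and 71.2, 61.6 and 61.6 CPM in HDACi-CFC. The drug-treated groups did not overlap, and Veh-CFC replicate 3 lay within the Veh-Context range. Pde1a fell with shock by 0.34 ± 0.11 in vehicle mice (log2, SE, adjusted p = 0.037) and by 0.48 ± 0.11 in drug-treated mice (adjusted p = 0.0014). In vehicle mice Pde1a no longer passed on leaving out Veh-Context replicate 1 or 2 (adjusted p = 0.11 each) or Veh-CFC replicate 1 (0.16) or 2 (0.13), or with library totals (0.057) or loess offsets (0.054).

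The Pde1a peaks that fell in drug-treated mice were all away from its start. In drug-treated mice 5 of its peaks fell and 0 rose, all of them intronic primed enhancers. Peak 9 (chr2:80033782-80035020, mm10), in the second intron of the gene, was 4.24, 4.58 and 4.76 CPM in HDACi-Context and 2.03, 1.56 and 1.51 CPM in HDACi-CFC. It fell by 1.39 ± 0.25 (log2, SE, adjusted p = 3.6e-05), and in vehicle mice it changed by −0.63 ± 0.28 (adjusted p = 0.15). The promoter peak 14 (chr2:80126180-80130472), a strong promoter by state, changed by 0.04 ± 0.13 with shock in drug-treated mice (adjusted p = 0.85). Peak 14 was lower with the drug over both behaviours, by −0.35 ± 0.09 (adjusted p = 0.008), while the intronic peak 13 was higher by 0.48 ± 0.14 (adjusted p = 0.021). The call of peak 13 was lost without Veh-Context replicate 3, Veh-CFC replicate 1 or 2, HDACi-Context replicate 3 or HDACi-CFC replicate 1, with adjusted p-values up to 0.084.

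Pde1c had the weakest acetylation of the 9 genes and only 2 peaks. Its promoter peak 1 (chr6:56361464-56362196, first exon) was 0.747, 1.33 and 1.32 CPM in Veh-Context and 2.83, 2.97 and 1.56 CPM in Veh-CFC. It was 0.973, 0.464 and 0.816 CPM in HDACi-Context and 2.54, 1.56 and 2.44 CPM in HDACi-CFC. CFC libraries were above Context libraries in both treatments, without overlap. Peak 1 rose by 1.57 ± 0.36 in drug-treated mice (log2, SE, adjusted p = 6.6e-04) and by 1.17 ± 0.37 in vehicle mice (adjusted p = 0.044). The latter call was lost with library totals, with loess offsets and without any of 7 libraries (all 3 of Veh-Context, replicates 1 and 2 of Veh-CFC, replicates 1 and 3 of HDACi-CFC), with adjusted p-values up to 0.23. The intergenic peak 2 moved the other way in drug-treated mice, by −0.46 ± 0.24 (adjusted p = 0.12), and the sum of the 2 peaks did not pass.

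Pde2a encodes a phosphodiesterase of both messengers that cGMP itself stimulates. Its 12 peaks lay close together, and 9 of them were active enhancers by state. One RefSeq start lies in a CG-rich stretch between peaks 11 and 12, and the window before it is shown because the acetylation that rose flanks it on both sides. These 250 bases (RefSeq, GRCm38.p6) lie at chr7:101451002-101451251, plus strand. Capitals mark the GC box GGGCGG on either strand, which 32.7% of 32851 such windows in the genome hold.
Pde2a: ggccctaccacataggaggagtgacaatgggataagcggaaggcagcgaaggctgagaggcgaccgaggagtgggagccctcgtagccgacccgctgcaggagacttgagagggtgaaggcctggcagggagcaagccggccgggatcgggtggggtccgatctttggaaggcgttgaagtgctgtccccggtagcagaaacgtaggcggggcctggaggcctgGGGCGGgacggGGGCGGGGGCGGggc
The window has 68.0% G and C and 19 CpG dinucleotides, against medians of 52.4% and 6 over all windows. No peak overlaps it.

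Summed over its peaks, Pde2a was 137, 155.2 and 159.5 CPM in Veh-Context and 220.2, 183.9 and 161.8 CPM in Veh-CFC. It was 170.8, 136.6 and 117.3 CPM in HDACi-Context and 247, 241.3 and 222.8 CPM in HDACi-CFC. All CFC libraries were above all Context libraries of the same treatment, narrowly in vehicle mice. The rise with shock was 0.74 ± 0.12 in drug-treated mice (log2, SE, adjusted p = 1e-04). In vehicle mice it was 0.33 ± 0.12 and did not pass (adjusted p = 0.063), although it did without Veh-CFC replicate 3 (0.025), HDACi-Context replicate 1 (0.023) or HDACi-Context replicate 3 (0.037).

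In drug-treated mice 7 of the 12 peaks of Pde2a rose and 0 fell. The widest, peak 12 (chr7:101451489-101477565), begins downstream of the window shown. Peak 12 was 89.3, 63.4 and 54.4 CPM in HDACi-Context and 151, 131.9 and 133.1 CPM in HDACi-CFC. It rose by 1.01 ± 0.14 (log2, SE, adjusted p = 8.6e-06), a call lost with loess offsets (0.61, adjusted p = 0.052). The drug effect at peak 12 did not pass in either behaviour. In shocked mice it did with the replicate block (0.47, adjusted p = 0.04). There it also passed without Veh-CFC replicate 1 (0.62, 0.026) or HDACi-Context replicate 1 (0.46, 0.02) or 3 (0.46, 0.043). In unshocked mice peak 12 passed as a fall without HDACi-Context replicate 1 (−0.40, 0.027). Peak 11 (chr7:101449605-101451000), on the upstream side, rose by 1.19 ± 0.27 (adjusted p = 7.7e-04). Peak 3 (chr7:101418607-101428263), over the first start of the gene, rose by 0.88 ± 0.12 (adjusted p = 2.3e-07).

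The largest log2 changes of Pde2a were in its weakest peaks. Peak 1 (1.43 CPM per kb) rose by 2.14 ± 0.39 and peak 5 (1.80 CPM per kb) by 2.06 ± 0.39 in drug-treated mice (log2, SE, adjusted p = 4.9e-05 and 6.2e-05). Peak 1 lies before the gene, in the 3′ UTR of another transcript, and was 0.834, 0.406 and 0.544 CPM in HDACi-Context and 3.26, 2.81 and 1.76 CPM in HDACi-CFC. Peaks 1, 5 and 11 were chosen after their values were seen. In vehicle mice peak 8, an intronic active enhancer, rose by 0.72 ± 0.16 (adjusted p = 0.0062) and peak 3 by 0.40 ± 0.12 (adjusted p = 0.04). Peak 8 lost its call on leaving out Veh-Context replicate 1 or Veh-CFC replicate 1 (adjusted p = 0.077 each), and peak 3 with library totals or on leaving out Veh-Context replicate 1 or 2, Veh-CFC replicate 1 or 2, HDACi-Context replicate 2 or HDACi-CFC replicate 3 (up to 0.26).

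Pde4a, Pde4b and Pde4d encode cAMP-specific phosphodiesterases, the enzymes inhibited by rolipram, and each is transcribed from several start sites into long and short forms. Pde4a showed the most regular rise with shock of the 9 genes. The 250 bases before 2 of its start sites are shown, since 4 of its 5 promoter peaks stand on either side of them (RefSeq, GRCm38.p6, plus strand). The first lies at chr9:21165464-21165713 and the second at chr9:21183851-21184100. Capitals mark the GC box GGGCGG and TGACG, the core of the cAMP response element (CRE), each on either strand.
Pde4a first start: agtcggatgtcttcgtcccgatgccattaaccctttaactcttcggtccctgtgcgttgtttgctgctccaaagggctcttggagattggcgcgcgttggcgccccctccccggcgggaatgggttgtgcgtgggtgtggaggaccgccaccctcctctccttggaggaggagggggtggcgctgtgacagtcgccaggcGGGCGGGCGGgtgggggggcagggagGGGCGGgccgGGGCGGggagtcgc
Pde4a second start: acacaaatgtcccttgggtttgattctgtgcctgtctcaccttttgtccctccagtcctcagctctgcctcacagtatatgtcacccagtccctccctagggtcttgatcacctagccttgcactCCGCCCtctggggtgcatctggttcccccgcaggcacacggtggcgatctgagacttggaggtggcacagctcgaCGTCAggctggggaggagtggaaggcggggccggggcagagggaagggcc
The first window has 68.8% G and C, 22 CpG dinucleotides and 4 GC boxes, 2 of them overlapping. The second has 61.2% G and C, 8 CpG dinucleotides, 1 GC box and 1 CRE core, both here as their reverse complements. Of all windows 17.8% hold a CRE core. The full palindrome TGACGTCA, in 1.55% of all windows, occurs in none of the 28 windows of the 9 genes. The first window runs from the last bases of peak 2 into the gap before peak 3, and the second from the end of peak 8 into the gap before peak 9.

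Summed over its 20 peaks, Pde4a was 90.2, 95.9 and 93.5 CPM in Veh-Context and 139.3, 135.9 and 109.5 CPM in Veh-CFC. It was 95.7, 81.3 and 68.5 CPM in HDACi-Context and 136.7, 148.6 and 142.1 CPM in HDACi-CFC. Every CFC library was above every Context library, in both treatments. Pde4a rose with shock by 0.46 ± 0.11 in vehicle mice (log2, SE, adjusted p = 0.012) and by 0.80 ± 0.11 in drug-treated mice (adjusted p = 2.7e-05). In vehicle mice the change was 0.44 and 0.41, and short of the threshold, on leaving out Veh-Context replicate 1 (adjusted p = 0.06) or Veh-CFC replicate 1 (0.061).

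In drug-treated mice 12 of the 20 Pde4a peaks rose and 0 fell, and these included all 5 promoter peaks. Peak 3 (chr9:21166316-21169905), just past the first start site in the first intron and the strongest of the gene at 7.37 CPM per kb, was 21.5, 20.3 and 23.2 CPM in Veh-Context and 34.9, 36.8 and 27.8 CPM in Veh-CFC. It was 17.3, 13.2 and 11.9 CPM in HDACi-Context and 32.2, 42.1 and 36.4 CPM in HDACi-CFC. HDACi-Context was the lowest of the 4 groups and overlapped none of them. Peak 3 rose with shock by 0.61 ± 0.14 in vehicle mice (log2, SE, adjusted p = 0.0055) and by 1.38 ± 0.13 in drug-treated mice (adjusted p = 1.7e-10). With the drug it fell by 0.63 ± 0.14 in unshocked mice (adjusted p = 0.0022), and in shocked mice the change was 0.14 (adjusted p = 0.72).

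A second promoter peak of Pde4a was also lowest in HDACi-Context. Peak 15 (chr9:21194715-21199399), over the untranslated first exon of a short transcript, was 16.2, 16.6 and 16.7 CPM in Veh-Context and 28.1, 26.2 and 23.6 CPM in Veh-CFC. It was 11.6, 10.4 and 9.59 CPM in HDACi-Context and 24.1, 22.8 and 24.6 CPM in HDACi-CFC. The Context and CFC libraries did not overlap in either treatment. Peak 15 rose with shock by 0.66 ± 0.13 in vehicle mice (log2, SE, adjusted p = 0.0021) and by 1.18 ± 0.13 in drug-treated mice (adjusted p = 1.6e-09). It fell with the drug by 0.65 ± 0.13 in unshocked mice (adjusted p = 8.3e-04) and by 0.39 ± 0.09 over both behaviours (adjusted p = 0.003). Peak 2, upstream of the first start, rose with shock by 0.94 ± 0.19 in vehicle mice (adjusted p = 0.0035) but changed by −0.00 with the drug in unshocked mice.

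**Figure D4:**
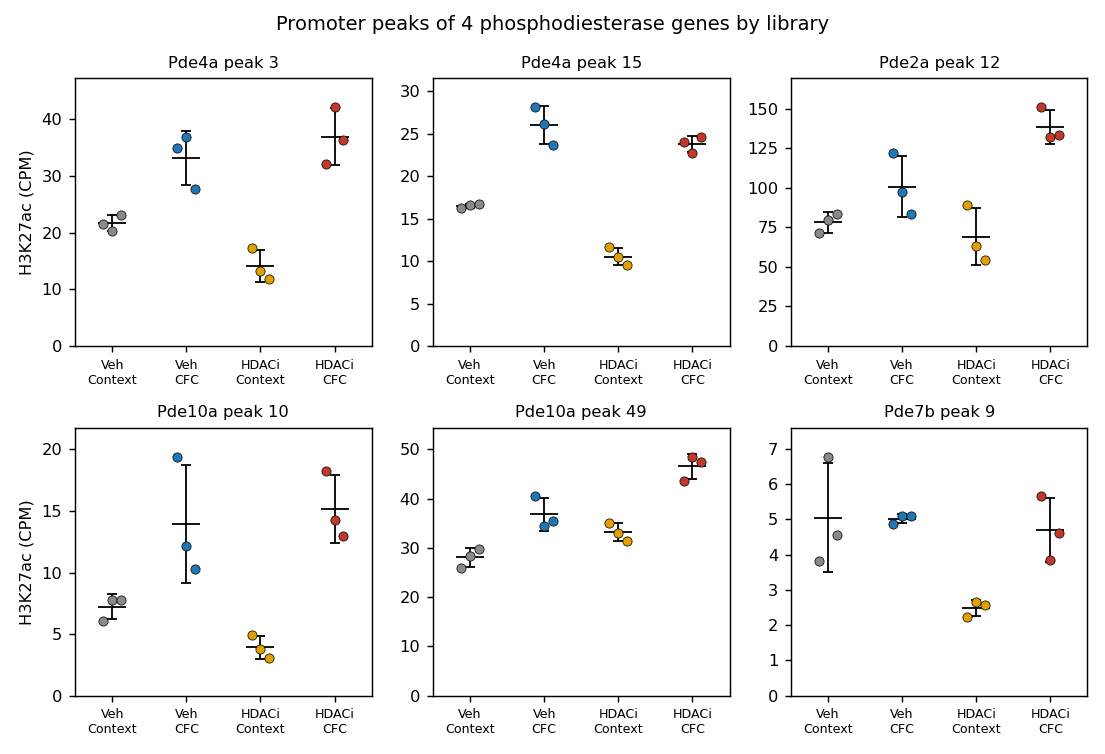
H3K27ac in CPM (y axes from 0) at 6 promoter peaks of Pde4a, Pde2a, Pde10a and Pde7b, by group (x axes), with points for the 3 libraries and bars for the mean ± SD. HDACi-Context is the lowest group at peaks 3 and 15 of Pde4a, at peak 10 of Pde10a and at peak 9 of Pde7b, and is above Veh-Context at peak 49 of Pde10a.

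Pde4b, with 65 peaks over a long first intron and beyond, fell with shock where Pde4a rose. Its sum was 441.9, 399.4 and 401.4 CPM in Veh-Context and 335.2, 334.3 and 386.3 CPM in Veh-CFC. It was 409.9, 452.5 and 547.3 CPM in HDACi-Context and 383.2, 316.2 and 329.8 CPM in HDACi-CFC. CFC libraries were below Context libraries in both treatments, without overlap. The fall was 0.45 ± 0.10 in drug-treated mice (log2, SE, adjusted p = 0.0013), and in vehicle mice the change was −0.24 ± 0.10 (adjusted p = 0.10).

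Of the Pde4b peaks 19 fell and 2 rose with shock in drug-treated mice, and the 2 that rose were peak 39, a narrow intronic peak (1.24 ± 0.48, log2, SE, adjusted p = 0.037), and promoter peak 52 (0.64 ± 0.24, adjusted p = 0.032). The strongest peak away from a start, peak 3, fell by 0.45 ± 0.13 (adjusted p = 0.0073), a call lost on leaving out HDACi-Context replicate 3 (−0.27, adjusted p = 0.14). The last 5 peaks, between genes on the far side of Pde4b, all fell. Among them peak 64 (chr4:102648946-102650678) was 7.24, 8.10 and 7.87 CPM in Veh-Context and 2.31, 4.03 and 3.82 CPM in Veh-CFC. It was 7.995, 8.75 and 10.4 CPM in HDACi-Context and 5.58, 3.12 and 3.78 CPM in HDACi-CFC. The CFC libraries were below all Context libraries. Peak 64 fell by 1.17 ± 0.22 in vehicle mice (log2, SE, adjusted p = 0.0015) and by 1.09 ± 0.19 in drug-treated mice (adjusted p = 1.6e-05).

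The strongest promoter of Pde4b was among the peaks that did not pass for shock. Peak 57 (chr4:102587861-102595142), a strong promoter by state at 8.69 CPM per kb, changed by 0.03 ± 0.12 in vehicle mice and by 0.22 ± 0.12 in drug-treated mice (log2, SE, adjusted p = 0.9 and 0.14). With the drug it fell by 0.40 ± 0.12 in unshocked mice (adjusted p = 0.023) and by 0.31 ± 0.08 over both behaviours (adjusted p = 0.011). The first call was lost with loess offsets (−0.23, adjusted p = 0.16) and without Veh-Context replicate 1 (0.12) or 3 (0.085) or HDACi-Context replicate 1 (0.059) or 2 (0.12), and the second without Veh-CFC replicate 3 (0.084). Its start window, shown because the mark covers it whole, has 50.8% G and C, 3 CpG dinucleotides and no GC box (RefSeq, GRCm38.p6, chr4:102589593-102589842, plus strand).
Pde4b: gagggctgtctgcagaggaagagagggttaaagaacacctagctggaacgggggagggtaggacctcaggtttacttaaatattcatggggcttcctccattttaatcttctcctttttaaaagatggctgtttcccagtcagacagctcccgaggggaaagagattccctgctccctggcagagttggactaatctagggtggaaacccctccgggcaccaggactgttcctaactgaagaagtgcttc

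Pde4d had 7 peaks, 6 of them intronic, and fell with shock when its peaks were summed. It was 27.4, 35.2 and 34.7 CPM in Veh-Context and 20.2, 23.1 and 27.4 CPM in Veh-CFC. It was 28.2, 23.8 and 30.0 CPM in HDACi-Context and 22.6, 19.4 and 20.1 CPM in HDACi-CFC. The CFC libraries were below the Context libraries in both treatments, by a small margin. The fall was 0.46 ± 0.13 in vehicle mice (log2, SE, adjusted p = 0.023) and 0.40 ± 0.13 in drug-treated mice (adjusted p = 0.015). The first call was lost without Veh-Context replicate 2 (0.074) or 3 (0.076) or Veh-CFC replicate 1 (0.13) or 2 (0.063), and the second without HDACi-Context replicate 3 (0.079) or HDACi-CFC replicate 2 (0.06) or 3 (0.053). Both were lost when peaks over 100 kb from the start site were left out (0.054 and 0.2). No single Pde4d peak passed for shock in drug-treated mice, and 1 did in vehicle mice, peak 7 in the second intron, which fell by 1.05 ± 0.34 (adjusted p = 0.047). On leaving out any of 9 libraries (all but Veh-CFC replicate 3 and HDACi-Context replicates 1 and 3) peak 7 did not pass, with adjusted p-values up to 0.28.

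Pde7b and Pde8b encode further cAMP-specific phosphodiesterases, which rolipram does not inhibit. At Pde7b 3 peaks fell with the drug in unshocked mice. The intronic peak 3 (chr10:20471169-20476424), a primed enhancer, was 40.9, 42.3 and 39.7 CPM in Veh-Context and 24.3, 30.7 and 26.4 CPM in HDACi-Context. In shocked mice it was 28.0, 34.9 and 38.9 CPM with vehicle and 22.9, 29.6 and 28.7 CPM with the drug. The unshocked groups were far apart, and the shocked groups overlapped. Peak 3 fell with the drug by 0.59 ± 0.12 in unshocked mice (log2, SE, adjusted p = 0.0012) and by 0.46 ± 0.09 over both behaviours (adjusted p = 3.4e-04). In shocked mice the change was −0.33 (adjusted p = 0.25).

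The 2 promoter peaks of Pde7b also fell with the drug in unshocked mice, by different amounts. Peak 9 (chr10:20547520-20548846), over the untranslated first exon of a short transcript, was 3.81, 6.77 and 4.56 CPM in Veh-Context and 2.23, 2.67 and 2.59 CPM in HDACi-Context. It was 4.88, 5.09 and 5.10 CPM in Veh-CFC and 5.65, 3.85 and 4.62 CPM in HDACi-CFC, so HDACi-Context alone was low. Peak 9 fell with the drug by 0.95 ± 0.22 in unshocked mice (log2, SE, adjusted p = 0.0039) and rose with shock by 0.93 ± 0.22 in drug-treated mice (adjusted p = 9.1e-04). The upstream peak 24 fell by 0.39 ± 0.13 in unshocked mice (adjusted p = 0.048) and by 0.37 ± 0.09 over both behaviours (adjusted p = 0.0052). The first of these calls was lost with DESeq2, library totals or loess offsets, and on leaving out any of 8 libraries (all but Veh-Context replicate 2, Veh-CFC replicates 1 and 3 and HDACi-CFC replicate 1), with adjusted p-values up to 0.25. The window before the start under peak 9 is shown because peak 9 had the largest fall of the 12 peaks that fell with the drug in unshocked mice (RefSeq, GRCm38.p6, chr10:20548329-20548578, minus strand). It has 55.2% G and C, 10 CpG dinucleotides and none of the motifs searched.
Pde7b: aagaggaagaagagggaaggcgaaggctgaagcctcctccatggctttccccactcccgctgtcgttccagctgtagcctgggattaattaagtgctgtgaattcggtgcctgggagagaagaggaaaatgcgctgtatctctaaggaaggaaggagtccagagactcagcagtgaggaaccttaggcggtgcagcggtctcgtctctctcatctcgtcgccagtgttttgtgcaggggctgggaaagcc

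With shock in drug-treated mice more peaks fell than rose at both genes. The sum of the 25 Pde7b peaks changed by −0.28 ± 0.12 in drug-treated mice and did not pass (log2, SE, adjusted p = 0.053), while 6 of its peaks fell and 1, peak 9, rose. The sum of the 30 Pde8b peaks was 198, 219.7 and 219.1 CPM in HDACi-Context and 163.8, 186.6 and 178.5 CPM in HDACi-CFC, without overlap. It fell by 0.27 ± 0.08 (adjusted p = 0.0067), and in vehicle mice the change was −0.14 ± 0.08 (adjusted p = 0.2). Of the Pde8b peaks 7 fell and 1 rose, the promoter peak 28 (0.67 ± 0.21, adjusted p = 0.0095). Peak 23 of Pde7b, a weak intronic peak, rose with the drug in unshocked mice (0.56 ± 0.17, adjusted p = 0.033) and fell with shock in drug-treated mice (−0.84 ± 0.18, adjusted p = 2.2e-04), comparisons that share the HDACi-Context libraries. In vehicle mice its shock effect was 0.02 ± 0.20. The rise was lost with DESeq2 and on leaving out Veh-Context replicate 1 or 3 or HDACi-Context replicate 2 or 3 (adjusted p up to 0.12).

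Pde10a encodes a phosphodiesterase of both messengers, best known from medium spiny neurons of the striatum. It carried the most peaks and the largest summed signal, and it was the only gene whose sum passed for the drug. The sum was 518.5, 532.5 and 530.8 CPM in Veh-Context and 567.1, 586.2 and 561.4 CPM in HDACi-Context. It was 461.9, 487.3 and 501.9 CPM in Veh-CFC and 523.2, 557.4 and 535.7 CPM in HDACi-CFC. Drug libraries were above vehicle libraries of the same behaviour without overlap. Over both behaviours Pde10a rose by 0.14 ± 0.05 (log2, SE, adjusted p = 0.042). That call was lost with library totals (0.06, adjusted p = 0.23), loess offsets (0.02, adjusted p = 0.72) and the stricter filter (0.056), and on leaving out any of 8 libraries (0.054 to 0.11: all 3 of Veh-Context, Veh-CFC replicates 1 and 2, HDACi-Context replicate 2, HDACi-CFC replicates 2 and 3).

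The 3 promoter peaks of Pde10a rose with shock in drug-treated mice but differed in their drug effect. Peak 10 (chr17:8525348-8528343), over the most upstream start, was 6.05, 7.80 and 7.79 CPM in Veh-Context and 19.4, 12.2 and 10.3 CPM in Veh-CFC. It was 4.94, 3.77 and 3.06 CPM in HDACi-Context and 18.3, 14.3 and 12.9 CPM in HDACi-CFC. The 2 CFC groups overlapped each other, and both lay above the Context groups. Peak 10 rose with shock by 0.97 ± 0.20 in vehicle mice (log2, SE, adjusted p = 0.0043) and by 1.96 ± 0.20 in drug-treated mice (adjusted p = 4.6e-09), the largest change of a promoter peak among the members. It fell with the drug by 0.87 ± 0.22 in unshocked mice (adjusted p = 0.0088). On leaving out Veh-CFC replicate 1 the change in vehicle mice was 0.67 and did not pass (adjusted p = 0.065), and the drug call was lost on leaving out Veh-Context replicate 3 (0.086) or HDACi-Context replicate 2 or 3 (0.057 each).

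The internal start sites of Pde10a behaved otherwise under the drug. The first of them is shown because acetylation rose with both shock and drug just downstream (RefSeq, GRCm38.p6, chr17:8801495-8801744, plus strand, the GC box in capitals as its reverse complement).
Pde10a: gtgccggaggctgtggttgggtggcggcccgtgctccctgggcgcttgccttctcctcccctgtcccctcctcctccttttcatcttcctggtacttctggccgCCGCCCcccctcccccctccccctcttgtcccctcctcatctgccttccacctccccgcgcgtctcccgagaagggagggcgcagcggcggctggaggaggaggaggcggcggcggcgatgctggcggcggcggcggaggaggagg
The window has 72.8% G and C and 21 CpG dinucleotides, and lies in the gap between peaks 48 and 49. Peak 49 (chr17:8802096-8813313) was 26.0, 28.4 and 29.8 CPM in Veh-Context and 35.0, 33.0 and 31.4 CPM in HDACi-Context. It was 40.6, 34.5 and 35.4 CPM in Veh-CFC and 43.6, 48.5 and 47.5 CPM in HDACi-CFC. Drug and vehicle libraries did not overlap in either behaviour. Over both behaviours peak 49 rose with the drug by 0.29 ± 0.08 (log2, SE, adjusted p = 0.016), and with shock it rose by 0.39 ± 0.12 in vehicle mice (adjusted p = 0.035) and by 0.49 ± 0.11 in drug-treated mice (adjusted p = 6.5e-04). The drug call was lost without Veh-Context replicate 1 (0.06) or Veh-CFC replicate 2 (0.061), and the shock call in vehicle mice without Veh-Context replicate 1 or 2, Veh-CFC replicate 1 or HDACi-CFC replicate 3 (up to 0.19).

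Before the next internal start of Pde10a lay the only member called for the drug in shocked mice. Peak 63 (chr17:8846100-8848944), a primed enhancer with its centre at −2463 bp from that start, was 4.1, 6.998 and 6.09 CPM in Veh-CFC and 10.2, 10.6 and 9.83 CPM in HDACi-CFC. It was 8.81, 10.6 and 7.35 CPM in Veh-Context and 10.9, 14.4 and 11.2 CPM in HDACi-Context. Veh-CFC was the lowest group and did not overlap the others. Peak 63 rose with the drug by 0.82 ± 0.19 in shocked mice (log2, SE, adjusted p = 0.017) and by 0.65 ± 0.12 over both behaviours (adjusted p = 2.3e-04). The call in shocked mice was lost without Veh-CFC replicate 1 (0.63, adjusted p = 0.073) or HDACi-CFC replicate 1 (0.069), 2 (0.074) or 3 (0.073). Its neighbour over the start, promoter peak 64, rose with the drug over both behaviours by 0.32 ± 0.10 (adjusted p = 0.028), and lost that call without Veh-Context replicate 1 or 2, Veh-CFC replicate 1 or HDACi-CFC replicate 2 or 3 (up to 0.1). The rise of peak 64 with shock in drug-treated mice was lost with library totals (adjusted p = 0.064). It was also lost without HDACi-Context replicate 2 (0.055) or HDACi-CFC replicate 3 (0.07).

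Of the 84 Pde10a peaks 5 fell with the drug in unshocked mice, and among them was the strongest peak away from a start. The intergenic peak 1 (chr17:8482476-8489956), an active enhancer centred at −40585 bp from the first start, was 52.1, 44.6 and 51.9 CPM in Veh-Context and 34.7, 35.9 and 35.8 CPM in HDACi-Context. It was 36.2, 47.2 and 49.4 CPM in Veh-CFC and 33.0, 41.8 and 38.6 CPM in HDACi-CFC, which overlapped, and in shocked mice the drug effect did not pass (−0.23 ± 0.12, adjusted p = 0.44). It fell by 0.49 ± 0.12 in unshocked mice (log2, SE, adjusted p = 0.0052) and by 0.36 ± 0.09 over both behaviours (adjusted p = 0.0032), the former call being lost without Veh-Context replicate 3 (adjusted p = 0.053). Peaks 9, 26 and 29 of Pde10a also fell with the drug in unshocked mice, by 0.52, 0.61 and 0.49 on the log2 scale. All 3 calls were lost on leaving out Veh-Context replicate 3 (adjusted p = 0.27, 0.28 and 0.4) or HDACi-Context replicate 3 (0.17, 0.19 and 0.21), those of peaks 9 and 26 also on leaving out Veh-Context replicate 2 (0.073 and 0.09), and that of peak 9 on leaving out HDACi-Context replicate 2 (0.22) or HDACi-CFC replicate 2 or 3 (0.057 and 0.056). Peak 9 also lost it with DESeq2 (0.071), library totals (0.08) and loess offsets (0.066), and peak 29 with DESeq2 (0.058) and library totals (0.056). Of the 84 peaks, 12 rose and 10 fell with shock in drug-treated mice, and peak 9, next to the first promoter, rose by 1.03 ± 0.16 (adjusted p = 3.3e-06).

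Among the remaining peaks called for the drug, peak 65 of Pde4b was higher in unshocked mice (0.44 ± 0.14, log2, SE, adjusted p = 0.047), peak 63 of Pde10a lay at the threshold there (0.48 ± 0.16), and peak 65 of Pde4b was higher over both behaviours (0.38 ± 0.11, adjusted p = 0.021). Lower over both behaviours were peak 6 of Pde4b (−0.77 ± 0.24, adjusted p = 0.033), peak 5 of Pde4d (−0.59 ± 0.16, adjusted p = 0.0091), and peak 29 of Pde8b (−0.95 ± 0.30, adjusted p = 0.034). Among these, peak 5 of Pde4d kept its call on leaving out any library. The others lost theirs on leaving out any of 5 to 8 libraries, with adjusted p-values up to 0.34 for peak 63 of Pde10a (HDACi-Context replicate 2), 0.19 for peak 65 of Pde4b (HDACi-Context replicate 2), 0.16 for peak 6 of Pde4b (Veh-Context replicate 3) and 0.21 for peak 29 of Pde8b (Veh-CFC replicate 1). In unshocked mice peak 63 of Pde10a also lost its call with DESeq2 (0.096) and with the replicate number as a block (0.45, adjusted p = 0.053), and peak 65 of Pde4b with DESeq2 (0.08). Of the named peaks called for the drug in unshocked mice, 4 of 15 kept their call without each library in turn. For the drug over both behaviours 7 of 15 did, and for shock in vehicle mice 4 of 16. In these comparisons every called peak was checked, but not all calls for shock in vehicle mice are described above. Peaks 2 and 15 of Pde1a and peaks 17, 47 and 63 of Pde10a also fell there. Peak 48 of Pde10a rose. Each of these calls was lost on leaving out at least 1 library. For shock in drug-treated mice 19 of 25 named called peaks kept their call. There only part of the 36 higher and 47 lower peaks was named, including those with the smallest adjusted p. So this share does not stand for all of them and cannot be compared with the others. The 4 in vehicle mice were peaks 2, 3 and 15 of Pde4a and peak 64 of Pde4b. For the drug in unshocked mice they were peaks 3 and 15 of Pde4a and peaks 3 and 9 of Pde7b.

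Sequence windows were matched for all 9 genes, 28 in number, and read 5′ to 3′ on the strand of the gene. GC boxes occurred in windows of Pde2a, Pde4a, Pde8b and Pde10a. A CRE core occurred in 1 window each of Pde1a, Pde4a and Pde4b, and the AP-1 motif TGANTCA, in 6.75% of all windows, in 1 window of Pde1c. The motif GCGTGGGCG of the EGR factors, in 0.536% of all windows, was in none of the 28. These are matches of letters on both strands, not binding sites.

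Peaks of other genes near Pde4a rose with shock as well. A range of 500 kb around each gene was looked at after the values were seen. Over all peaks 4.41% rose and 2.74% fell with shock in vehicle mice, and 20.2% and 17.8% in drug-treated mice. Over all promoter peaks 14.1% and 45.3% rose, and how many of the neighbouring peaks were promoter peaks was not counted. Around Pde4a lay 34 protein-coding genes and 207 peaks named for other genes, of which 37 rose and 0 fell with shock in vehicle mice and 97 rose and 2 fell in drug-treated mice (medians 0.38 and 0.62, log2). Around Pde2a, 42 of 134 such peaks rose and 10 fell in drug-treated mice (median 0.32). Around Pde4b, 1 of 63 rose and 22 fell (median −0.30), and around Pde1a 4 of 88 rose and 28 fell (median −0.25). Around Pde4d, Pde7b and Pde8b the medians were −0.28, −0.17 and −0.14, and around Pde1c and Pde10a −0.08 and 0.12. The medians of a gene's own peaks had the opposite sign to those of the neighbouring peaks at Pde1c (own median 0.55) and Pde10a (own median −0.10), and the same sign at the other genes. At Pde1c this median comes from only 2 peaks, which moved opposite ways. Their summed change was −0.08, the sign of the neighbours.

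The other genes of cyclic nucleotide signalling were counted in the same way for shock in drug-treated mice, where 20.2% of all peaks rose and 17.8% fell. Of 93 peaks of 16 other phosphodiesterase genes 15 rose and 10 fell (median −0.08, log2). Of 237 peaks of 19 among 22 listed adenylyl and guanylyl cyclase genes, which make cAMP and cGMP, 39 rose and 32 fell (median −0.03). Of 190 peaks of 21 among 23 listed effector genes, among them protein kinase A subunits and cyclic nucleotide-gated channels, 35 rose and 38 fell (median −0.17). Of 232 peaks of 17 genes of kinase anchors and CREB with its partners 32 rose and 36 fell (median −0.13). For the drug in unshocked mice 1 of the 93 peaks was higher and 5 lower, and 13 and 6 of the 237. Of the 190 they were 5 and 7, and of the 232 they were 8 and 6. For the 9 genes they were 3 and 12 of 261, where 2.73% of all peaks rose and 5.85% fell. Summed per gene, 3 other phosphodiesterase genes rose and 4 fell with shock in drug-treated mice, 5 and 6 cyclase genes, 6 and 10 effector genes, and 4 and 8 anchor and CREB genes, where 28.2% of all genes rose and 28% fell. For these lists only the strongest promoter peak of each gene was counted. With shock in drug-treated mice it rose in 4 of 7, 7 of 13, 8 of 15 and 6 of 17 genes that had one. It fell in 1, in the anchor and CREB group. Over all promoter peaks, which are not limited to 1 per gene, 45.3% rose and 2.02% fell.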

How the data were processed

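The authors deposited whole-number read counts, not normalised, for 12 libraries over one set of peaks, with the width, nearest start site, place and chromatin state of each peak, per the file headers. Per the submitters' processing notes the build was mm10, and the tools listed are HOMER 4.11, DiffBind 2.16.2, MACS2, DESeq2 1.28.1, Bowtie2 2.3.5, Trimmomatic 0.38 and SAMtools 1.9, while the use made of each is not given in the sources used here. Column names give treatment and replicate only and were taken as the H3K27ac libraries; input libraries were not analysed here. No count was below 1, and 3 of 3132 member values were 1, so empty values may have been raised to 1. The series text gives other numbers of treatments and replicates than the labels, which were followed.

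The quasi-likelihood test of edgeR 4.0.16 (R 4.3.3) was fitted to the counts of all peaks (TMM, filterByExpr with a minimum count of 10, robust, 1 term per group, all 12 libraries, no replicate block). The filter kept 144014 peaks and all 261 members. Benjamini-Hochberg adjustment ran over all peaks, or over 18806 genes for summed counts, with calls at adjusted p under 0.05. The SE is the log2 change divided by the square root of F. The members had 8.83 to 1100 counts per library on average (median 40.1), and the median biological coefficient of variation was 0.131. The test was checked on simulated data. Alternatives were DESeq2 1.42.0, library totals, loess offsets (limma 3.58.1), no filter, a mean count of at least 30, the replicate number as a block, leaving out each library, and, for sums, peaks within 100 kb of the start. Peaks were numbered along the chromosome. All 9 genes are named; per gene the strongest promoter and other peak, the 10 peaks with the smallest adjusted p and the peaks called for the drug or in vehicle mice could be named. Peaks 1, 5 and 11 of Pde2a, 39 and 52 of Pde4b and 28 of Pde8b were named after their values were seen. Members and lists were chosen with earlier results of these data known. Without a spike-in, all changes are relative to the rest of each library.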

Additional observations from a re-analysis of the deposited data

How the results depend on the processing

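No named peak or gene sum that passed the threshold changed sign under any alternative run. Values near 0 that did not pass did change sign, among them the shock effect in vehicle mice at peak 57 of Pde4b (−0.15 to 0.15) and peak 23 of Pde7b (−0.03 to 0.08) and the drug effect in unshocked mice at peak 2 of Pde4a (−0.18 to 0.18). The majority of calls turned from lower to higher with DESeq2 for shock in drug-treated mice (29 higher, 19 lower) and from higher to lower with library totals for shock in vehicle mice (7 higher, 9 lower). With DESeq2 the peaks called higher were 2 for the drug in shocked mice, 0 for the drug in unshocked mice and 1 for the interaction, and those called lower were 2 for shock in vehicle mice and 19 for shock in drug-treated mice. Library totals gave 6 peaks higher for the drug in unshocked mice and 73 lower for shock in drug-treated mice. Loess offsets gave 5 higher for the drug in unshocked mice. Of gene sums for the drug over both behaviours, 0 were higher with library totals, loess offsets or the stricter filter, and 1 was lower with library totals and with loess offsets. Of gene sums lower with shock in vehicle mice, 1 was left with library totals, loess offsets or peaks within 100 kb. The cause of these changes was not tested.

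With the replicate block, 2 peaks were higher for the drug in shocked mice, and the other counts stayed within 1.5 times of those reported. Deviations of same-numbered libraries from their group means correlated between −0.286 and 0.365 over 18 pairs of groups and numbers, 3 of them above 0.1, and those of differently numbered libraries between −0.305 and 0.238. With 3 libraries per group these ranges cannot decide whether the numbers pair the samples, which the labels do not say.

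Leaving out each library in turn, peaks higher and lower ranged from 0 to 2 and 0 to 3 for the drug in shocked mice, 0 to 8 and 4 to 16 for the drug in unshocked mice, 2 to 7 and 7 to 16 for the drug over both behaviours, and 3 to 13 and 1 to 14 for shock in vehicle mice. For shock in drug-treated mice they ranged from 26 to 40 and 20 to 56, and 0 to 4 were higher in the interaction. The fewest falls with shock in drug-treated mice came without HDACi-Context replicate 3, and the fewest rises with shock in vehicle mice without Veh-CFC replicate 1. Gene sums higher or lower ranged from 0 to 1 each for the drug in unshocked mice, and higher from 0 to 1 for the drug over both behaviours and for the interaction. For shock in vehicle mice they ranged from 0 to 2 higher and 0 to 4 lower. By the distance of the peak centre, 15 in place of 24 peaks counted as promoter peaks. The precision of all values is limited by 3 libraries per group and, in weak peaks, by counts down to 8.83 per library on average.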
